A study of Mus musculus with 22 samples.

Results

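The 10 genes described here are Atf4 and 9 genes widely used as readouts of the integrated stress response, namely Atf3, Ddit3, Trib3, Asns, Chac1, Sesn2, Fgf21, Gdf15 and Ppp1r15a. They were taken by gene symbol from the 45777 genes of the count tables. All 10 were found in both cohorts, and all 10 had enough counts to be tested in every comparison. The study sequenced polyA-selected RNA from whole livers of male wild-type C57BL/6J mice, in 22 libraries. One cohort was given a high-fat diet (HFD) and the other a diet lacking methionine and choline (MCD), and each cohort had its own normal-diet (ND) group. Some animals on the disease diets also received DTMB, a compound for which only this code name is used here, as an oral dose of 10 mg/kg each day. The groups were ND with vehicle (n = 3), HFD with vehicle (n = 4) and HFD with DTMB (n = 4) in the HFD cohort. In the MCD cohort they were ND with vehicle (n = 4), MCD with vehicle (n = 4) and MCD with DTMB (n = 3). The sources used here do not give the age of the mice or the time on diet.

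In the integrated stress response, kinases that sense amino-acid shortage, unfolded protein in the endoplasmic reticulum, viral RNA or a lack of heme phosphorylate the translation factor eIF2. General protein synthesis then slows while the Atf4 messenger is translated more, so Atf4 mRNA is not a measure of ATF4 protein. ATF4 pairs with C/EBP and other basic leucine zipper (bZIP) proteins and binds composite elements in its target genes, which serve amino-acid supply, redox balance, feedback on the pathway and, under long stress, cell death. In liver, the secreted proteins FGF21 and GDF15 carry signals of nutrient and mitochondrial stress to other organs, and Fgf21 is also a target of the fasting receptor PPARalpha.

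The promoters are shown first because they separate the members that hold an ATF4-type element close to the start from those that do not. All 10 members had at least 1 promoter in the RefSeq set for GRCm38.p6, each covering 250 bases before and 50 bases after the annotated start, with 11 promoters in all. TGATGNAA, the core of the ATF4 and C/EBP composite element, was searched on both strands and occurred in 5 members. TGACGTCA, the cyclic AMP response element, was searched in the same way and occurred in 1. The stretches around these matches are printed 5′ to 3′ on the strand of the gene, with the matched bases in capitals, and TTGCATCA and TTACATCA are TGATGNAA read from the other strand.
Atf3, chr1:191183396-191183483, minus strand: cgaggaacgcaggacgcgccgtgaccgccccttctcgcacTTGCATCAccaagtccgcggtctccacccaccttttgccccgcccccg
Chac1, chr2:119351009-119351096, plus strand: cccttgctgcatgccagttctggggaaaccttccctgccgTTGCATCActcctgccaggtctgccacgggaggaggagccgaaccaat
Fgf21, chr7:45615582-45615669, minus strand: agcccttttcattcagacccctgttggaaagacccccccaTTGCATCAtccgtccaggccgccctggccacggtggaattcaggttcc
Asns, chr6:7693210-7693272, minus strand: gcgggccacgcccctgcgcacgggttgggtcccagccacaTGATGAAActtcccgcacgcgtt
Trib3, chr2:152344028-152344057, minus strand: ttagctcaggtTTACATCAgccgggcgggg
Ppp1r15a, chr7:45526269-45526320, minus strand: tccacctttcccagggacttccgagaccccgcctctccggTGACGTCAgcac

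The match began 110 bases before the start in Atf3, 193 in Chac1, 139 in Fgf21 and 23 in Asns, while in Trib3 it lay 15 bases after the start. Atf3, Chac1 and Fgf21 shared the same 8 letters, TTGCATCA. The cyclic AMP response element of Ppp1r15a lay 12 bases before its start. Neither motif was in these windows of Atf4, Ddit3, Sesn2 and Gdf15. Of 32851 promoters of this length, 3.97% held TGATGNAA and 1.79% held TGACGTCA. These matches describe letters in a window and are not measured binding sites.

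Library totals ran from 50.1 to 66.7 M counts. Hepatocyte markers, a list of 10 genes, summed to 86283 to 130283 CPM (read counts scaled to a common library total) over the 22 libraries. Pancreatic acinar transcripts, summed over a list of 30 genes, stood above 100 CPM in 6 libraries, at 534 to 4382 CPM of the library total, and were at most 25.5 CPM in the other 16. The 6 were ND replicates 1 and 3, HFD vehicle replicates 1 and 4 and HFD DTMB replicate 3 of the HFD cohort, and ND replicate 4 of the MCD cohort. ND replicate 1 of the HFD cohort also held skeletal muscle transcripts, at 212 CPM against 0.276 and 0.307 CPM in the other ND libraries of that cohort. Calls in the HFD cohort are given with and without these libraries; leaving them out keeps 1 ND library there, so the spread behind such a p-value comes from the other groups and the lone ND liver is assumed to vary as they do. In the MCD cohort the same 6 members were called for diet, and the same 5 for MCD with DTMB against ND, without the acinar-positive library. All levels below are CPM on the trimmed-mean (TMM) scale of the cohort, so the cohorts are not on a common scale. In bulk tissue, fewer cells of a type and less RNA per cell cannot be told apart.

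**Figure D1:**
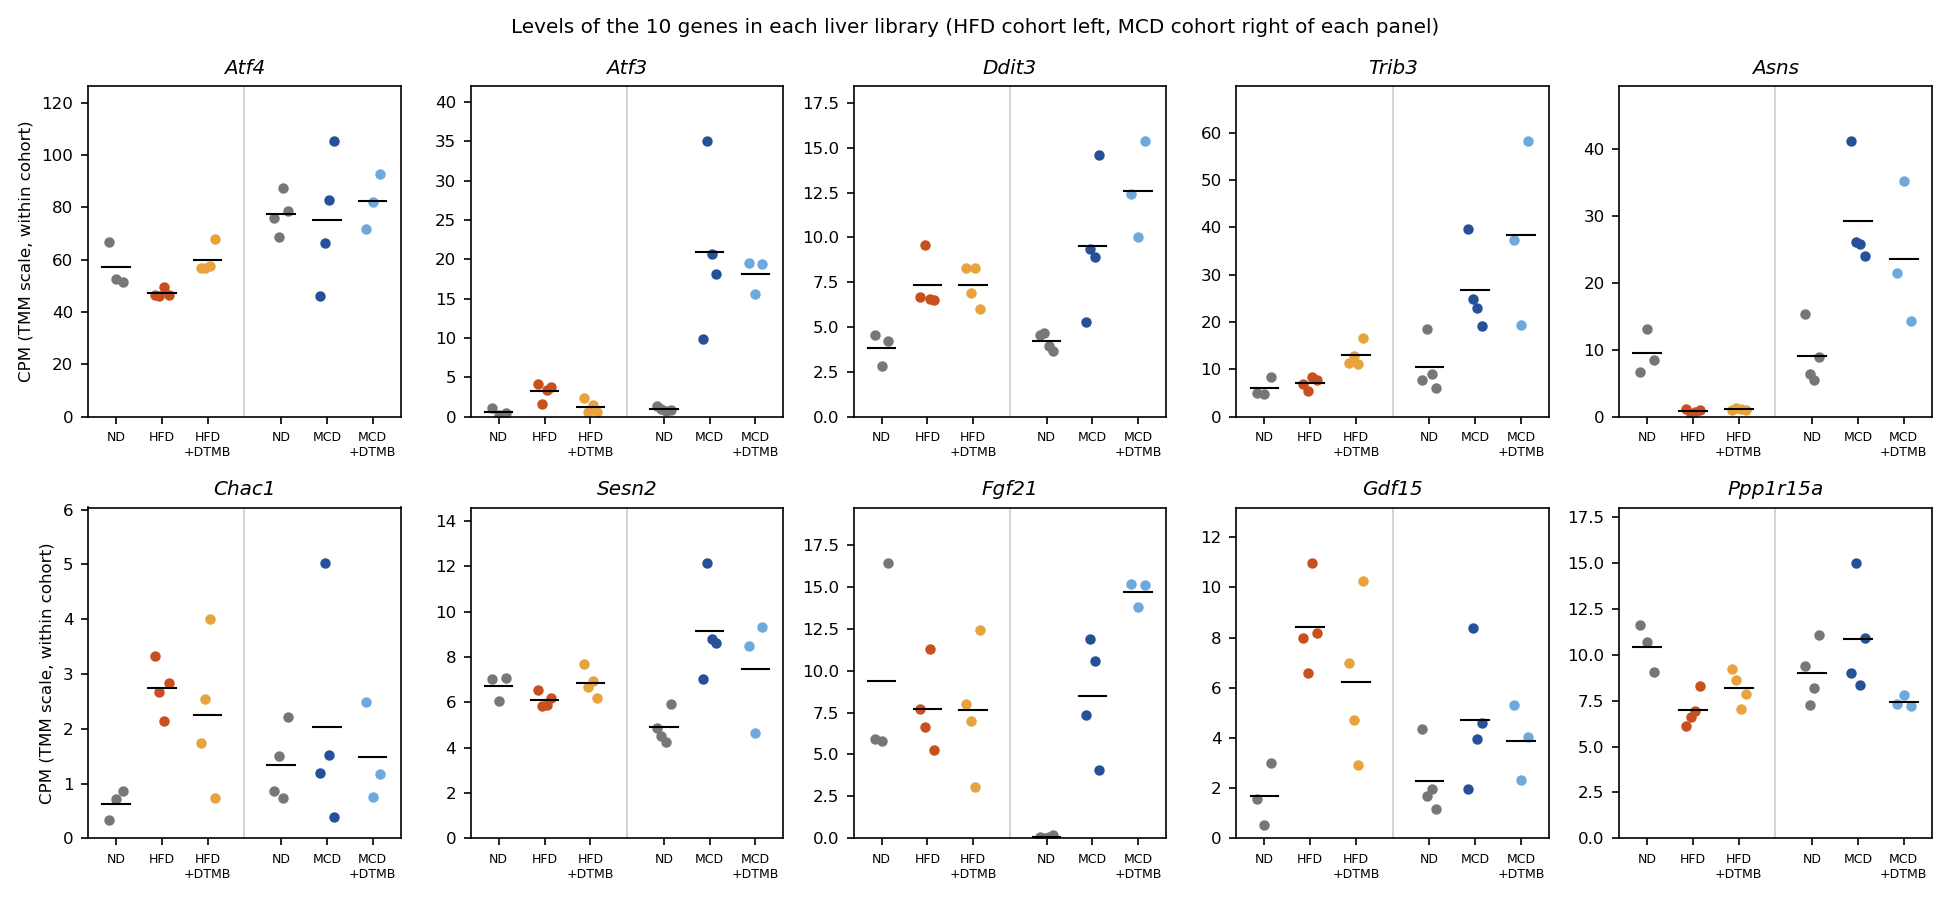
CPM of each of the 10 genes (y axis, linear from 0) in each library, by group (x axis); points are libraries and bars are group means, with the HFD cohort left and the MCD cohort right of the grey line. Asns sat at 6.67 to 13.1 CPM on ND and 0.331 to 1.17 CPM on HFD, but reached 24.1 to 41.2 CPM on MCD, and Fgf21 was at most 0.194 CPM in the ND livers of the MCD cohort.

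The first question was how the HFD changed these genes in livers without DTMB. Asns, the enzyme that makes asparagine and a standard marker of amino-acid shortage, was lower in every HFD liver than in any ND liver, whereas Atf3, Chac1, Gdf15 and Ddit3 rose. The set therefore moved in both directions. In edgeR's quasi-likelihood test with Benjamini-Hochberg adjustment over all genes, 4 of the 10 were higher and 2 lower at an adjusted p under 0.05. Over all 15597 genes tested, 27.8% were called. The median log2 fold change of the 10 genes was 0.05, beside 0.02 for all genes. The libraries of the compared groups did not overlap for 7 of the 10 genes and for 36% of all genes tested.

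Asns (gene ID 27053, chromosome 6, 7675165 to 7693209 in GRCm38.p6) was at 6.67, 13.1 and 8.55 CPM in the ND livers. In HFD vehicle livers it was at 1.17, 0.331, 0.791 and 0.944 CPM, from 21 to 76 counts a library. All HFD libraries lay below all ND libraries, with a log2 fold change of -3.54 ± 0.33 (SE, adjusted p = 3.36e-05). The highest ND value came from replicate 2, the ND library without acinar or muscle transcripts. Without the acinar-positive libraries, with replicate 2 as the only ND library and the spread taken from the other groups, the log2 fold change was -4.56 ± 0.40 (adjusted p = 0.00332).

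Atf3 (gene ID 11910, chromosome 1, 191170296 to 191183333), a bZIP repressor induced early in many kinds of stress, was at 1.12, 0.192 and 0.533 CPM on ND. In HFD vehicle livers it was at 4.15, 1.69, 3.37 and 3.81 CPM. The groups did not overlap, and the log2 fold change was 2.38 ± 0.59 (adjusted p = 0.0104). Ddit3 (gene ID 13198, chromosome 10, 127290793 to 127296291), which encodes the pro-apoptotic factor CHOP, went from 4.55, 2.82 and 4.21 CPM to 6.68, 9.58, 6.55 and 6.52 CPM. Every HFD liver was above every ND liver, with a log2 fold change of 0.92 ± 0.19 (adjusted p = 0.00443).

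Chac1 (gene ID 69065, chromosome 2, 119351242 to 119354326), which degrades glutathione, was under 1 CPM in each ND liver, at 0.325, 0.7101 and 0.864 CPM. In HFD vehicle livers it reached 3.33, 2.67, 2.15 and 2.83 CPM (log2 fold change 2.13 ± 0.49, adjusted p = 0.00763). Gdf15 (gene ID 23886, chromosome 8, 70629393 to 70632470), the hormone that acts on the hindbrain receptor GFRAL, was at 1.55, 0.537 and 3.00 CPM on ND. It stood at 8.004, 6.59, 10.99 and 8.17 CPM on HFD, again without overlap (2.31 ± 0.50, adjusted p = 0.00514).

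Ppp1r15a (gene ID 17872, chromosome 7, 45522917 to 45526268), whose product GADD34 brings a phosphatase to eIF2 and so ends the response, fell. Its ND levels were 11.6, 10.7 and 9.05 CPM and its HFD levels 6.11, 6.59, 6.92 and 8.31 CPM (-0.58 ± 0.13, adjusted p = 0.00539). Atf4 itself (gene ID 11911, chromosome 15, 80255184 to 80257545) was at 66.7, 52.8 and 51.7 CPM on ND and at 46.5, 46.1, 49.7 and 46.7 CPM on HFD. All HFD values of Atf4 were the lower ones, but the change missed the threshold (-0.27 ± 0.098, adjusted p = 0.0570). It passed as lower with DESeq2 (-0.29, adjusted p = 0.0215) and with limma-voom (-0.27, adjusted p = 0.0392).

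The remaining 3 genes overlapped between ND and HFD. Trib3 (gene ID 228775, chromosome 2, 152337425 to 152344060), a pseudokinase that dampens ATF4 and insulin signalling, was at 4.84 to 8.31 CPM on ND and 5.44 to 8.31 CPM on HFD (0.24 ± 0.21, adjusted p = 0.439). Sesn2 (gene ID 230784, chromosome 4, 132492804 to 132510456), a leucine sensor that restrains mTORC1, ran from 6.06 to 7.06 CPM and from 5.85 to 6.56 CPM (-0.14 ± 0.097, adjusted p = 0.322). Fgf21 (gene ID 56636, chromosome 7, 45613890 to 45615490) was at 5.93, 5.82 and 16.4 CPM on ND and at 7.73, 6.64, 11.3 and 5.28 CPM on HFD (-0.28 ± 0.45, adjusted p = 0.682).

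Leaving out the acinar-positive libraries kept 1 ND, 2 HFD vehicle and 3 HFD DTMB libraries, and 655 of 16101 genes were then called, with the spread estimated from the vehicle and DTMB livers alone. In that fit Ddit3 (1.51 ± 0.30, adjusted p = 0.0421) and Gdf15 (4.01 ± 0.62, adjusted p = 0.0185) were higher and Asns lower. Atf3 (3.69 ± 1.101, adjusted p = 0.119), Chac1 (1.75 ± 0.68, adjusted p = 0.207) and Ppp1r15a (-0.67 ± 0.15, adjusted p = 0.0587) no longer passed. Summed macrophage markers were at 86.8 to 144 CPM on ND and 121 to 295 CPM on HFD, with 7 of 15 genes higher and 0 lower. Summed immediate-early genes, which respond within minutes to many stimuli, were at 97.4 to 147 CPM on ND and 157 to 200.2 CPM on HFD, with 7 of 18 higher and 1 lower. Stellate and fibroblast markers had 4 of 11 higher and 0 lower, at sums of 235 to 271 CPM on ND and 259.98 to 411 CPM on HFD. Of the hepatocyte markers 2 of 10 were higher and 2 lower. Without the acinar-positive libraries 0 macrophage, 0 stellate and 2 immediate-early genes were called higher. The part of these lists in the rises of Atf3, Gdf15 and Ddit3 was not tested.

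The MCD diet was then set against ND in its own cohort. Here 6 of the 10 genes were higher and 0 lower, against 41.3% of the 16037 genes tested, and the median log2 fold change was 1.11 beside 0.00 for all genes. Fgf21 and Atf3 rose most, followed by Asns, Trib3, Ddit3 and Sesn2. Scaling by library size alone moved the median of all genes to 0.47, so the values below hold on the TMM scale. The groups did not overlap for 6 of the 10 members and for 37.7% of all genes tested.

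Markers of other liver cells differed between the same livers. Macrophage markers had 9 of 15 higher and 0 lower, with sums of 108 to 379.7 CPM on ND and 404 to 1046 CPM on MCD. Stellate and fibroblast markers had 5 of 11 higher and 0 lower, at 152 to 377 CPM on ND and 425 to 743 CPM on MCD. Of 19 immediate-early genes, 11 were called higher and 0 lower, with sums of 131 to 188 CPM on ND and 181 to 557 CPM on MCD. Hepatocyte markers had 0 of 10 higher and 4 lower, among them Serpina1c (8133 CPM on ND and 1751 CPM on MCD, -2.22 ± 0.18) and the apolipoprotein gene Apoa1 (-1.56 ± 0.17). On library size alone 3 hepatocyte markers were higher and 3 lower, while the other lists stayed higher. The part of these lists in the rises of the 6 members was not tested.

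Fgf21 was nearly absent from the ND livers, with 5, 0, 4 and 9 counts, or 0.0925, 0, 0.0775 and 0.194 CPM. In MCD vehicle livers it was at 7.37, 11.9, 10.6 and 4.05 CPM, from 260 to 900 counts. The log2 fold change was 6.50 ± 0.51 (adjusted p = 3.43e-06). The ND livers of the HFD cohort, by comparison, held 303 to 894 counts of Fgf21 each. The ND groups of the cohorts therefore stood at very different levels of this gene. Whatever else set the cohorts apart cannot be told apart from the disease diet in the contrast between cohorts.

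Atf3 went from 1.42, 0.948, 0.736 and 0.863 CPM on ND to 9.88, 35.0, 20.6 and 18.1 CPM on MCD (4.39 ± 0.37, adjusted p = 5.16e-06). The lowest MCD library was still several times above the highest ND library. Its highest level, in MCD vehicle replicate 2, came with the highest summed immediate-early genes (557 CPM, against 181 to 234 CPM in the other 3) and the highest summed macrophage markers (1046 CPM, against 404 to 674 CPM). The part of these in the level of Atf3 was not tested. Without that replicate the same 6 members were called.

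Asns rose on MCD, the opposite of its fall on HFD. It was at 15.3, 6.43, 5.50 and 8.98 CPM on ND and at 41.2, 26.1, 25.8 and 24.1 CPM on MCD, with no overlap (1.69 ± 0.35, adjusted p = 0.00236). Trib3 was at 7.77, 18.6, 9.14 and 6.17 CPM on ND and 39.7, 24.9, 22.9 and 19.3 CPM on MCD (1.36 ± 0.39, adjusted p = 0.0152). Its highest ND library stood just below its lowest MCD library.

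Ddit3 was at 4.55, 4.69, 3.95 and 3.69 CPM on ND and 5.27, 9.34, 8.89 and 14.6 CPM on MCD (1.17 ± 0.26, adjusted p = 0.00366). Sesn2 was at 4.86, 4.51, 4.26 and 5.93 CPM on ND and 7.02, 12.2, 8.77 and 8.60 CPM on MCD (0.90 ± 0.23, adjusted p = 0.00825). Both separated the groups fully.

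The other 4 genes did not pass. Atf4 mRNA covered a wide range on MCD, 46.1, 66.5, 82.9 and 105 CPM, around ND values of 76.1, 68.6, 87.4 and 78.6 CPM (-0.047 ± 0.20, adjusted p = 0.873). Under scaling by library size alone its log2 fold change was 0.40. Chac1 reached 5.03 CPM in MCD vehicle replicate 2 but lay between 0.390 and 1.52 CPM in the other 3, beside 0.736 to 2.22 CPM on ND (0.61 ± 0.65, adjusted p = 0.476). Gdf15 was at 4.35, 1.67, 1.98 and 1.17 CPM on ND and 1.98, 8.37, 3.94 and 4.61 CPM on MCD (1.04 ± 0.47, adjusted p = 0.0949). It passed as higher with DESeq2 (1.08, adjusted p = 0.0427), limma-voom (1.02, adjusted p = 0.0469) and library size alone (1.49, adjusted p = 0.0248). It also passed without ND replicate 1 (1.56, adjusted p = 0.0189) or MCD vehicle replicate 1 (1.30, adjusted p = 0.0364). Ppp1r15a ranged from 7.29 to 11.1 CPM and from 8.38 to 15.0 CPM (0.27 ± 0.19, adjusted p = 0.267). It was called higher on library size alone (0.74, adjusted p = 0.00780), which brought the members called to 8. The median of all genes on that scale was 0.47, and the share of all genes called there is not given. That count therefore shows only how the calls depend on the scaling.

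**Figure D2:**
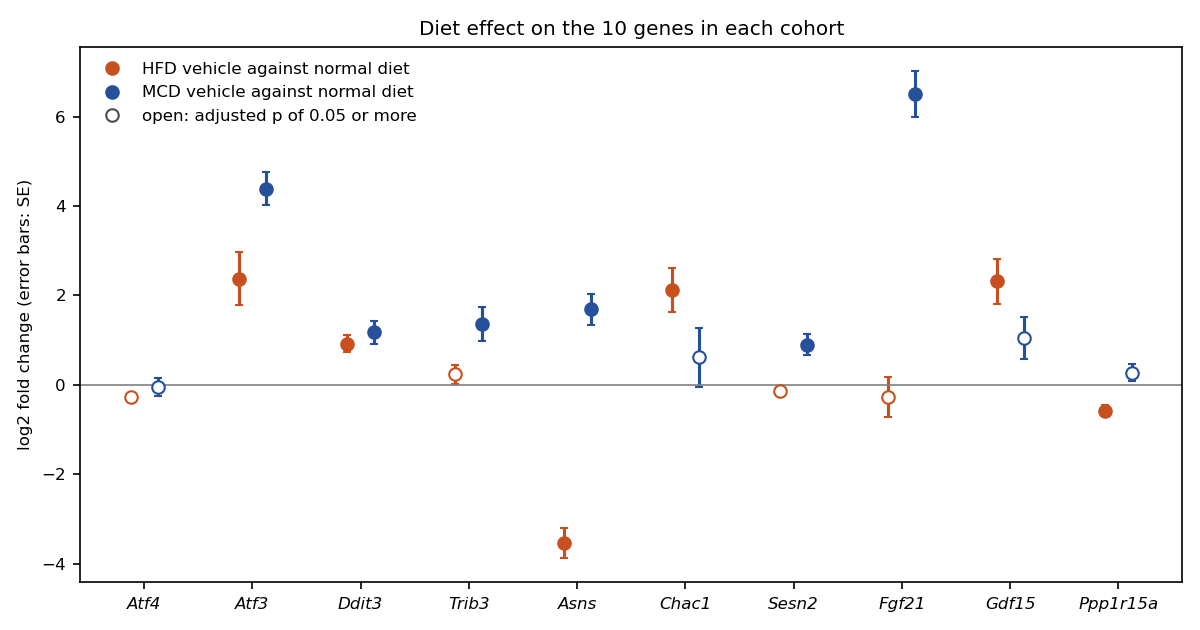
Log2 fold change of vehicle-treated disease diet against normal diet (y axis) for the 10 genes (x axis) in each cohort; bars are SE, and filled points passed an adjusted p of 0.05. Asns lies at -3.54 for HFD and 1.69 for MCD, and Fgf21 at -0.28 and 6.50.

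Whether the diets differed in their effect was tested directly, in a fit of all 22 libraries. For 5 of the 10 genes the MCD effect was higher than the HFD effect, for 0 it was lower, and 35.3% of 16541 genes were called in this contrast. The difference in log2 fold change, MCD minus HFD, was 6.81 ± 0.77 for Fgf21 (adjusted p = 1.13e-06) and 5.26 ± 0.52 for Asns (adjusted p = 2.15e-07). It was 2.04 ± 0.69 for Atf3 (adjusted p = 0.0261), 1.07 ± 0.27 for Sesn2 (adjusted p = 0.00397) and 0.88 ± 0.24 for Ppp1r15a (adjusted p = 0.00715). For Trib3 it was 1.16 ± 0.49 (adjusted p = 0.0714). It passed with DESeq2 (1.19, adjusted p = 0.0326), on library size alone (1.49, adjusted p = 0.0202), and without MCD ND replicate 2 (1.58, adjusted p = 0.00931) or MCD DTMB replicate 2 (1.16, adjusted p = 0.0462). Ddit3 was at 0.28 ± 0.35 (adjusted p = 0.570).

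Chac1 (-1.47 ± 0.90) and Gdf15 (-1.24 ± 0.73), the pair that leaned towards the HFD, did not pass. Without the acinar-positive libraries, 1 ND library of the HFD cohort was left. The differences were then 6.27 for Asns, 6.51 for Fgf21, 1.08 for Ppp1r15a, 1.09 ± 0.41 for Sesn2 and 0.66 ± 1.31 for Atf3. The calls of Sesn2 and Atf3 did not hold there, and the share of all genes called in that fit is not given. Atf3 was also not called with limma-voom (1.91, adjusted p = 0.119), without ND replicate 1 of the HFD cohort (1.27, adjusted p = 0.228) or without MCD vehicle replicate 2 (1.67, adjusted p = 0.0586). Without the latter, Chac1 was called lower (-2.45, adjusted p = 0.0213).

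The effect of DTMB was measured against vehicle on the same diet. On HFD, Trib3 and Atf4 were higher with DTMB and no member was lower, so 2 of 10 were called, beside 12.7% of 15597 genes. The median log2 fold change of the 10 was 0.09, and that of all genes -0.01. Vehicle and DTMB livers did not overlap for these 2 genes and for 19.8% of all genes. These comparisons share the HFD vehicle libraries with the diet comparison, so the values are given side by side and not related to each other.

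Trib3 was at 11.4, 12.9, 11.2 and 16.7 CPM with DTMB and at 6.99, 5.44, 8.31 and 7.80 CPM with vehicle (0.87 ± 0.19, adjusted p = 0.0184). Atf4 was at 56.7, 57.1, 57.5 and 67.9 CPM with DTMB and 46.5, 46.1, 49.7 and 46.7 CPM with vehicle (0.34 ± 0.091, adjusted p = 0.0341). In both genes all DTMB livers lay above all vehicle livers. Both calls were lost without the acinar-positive libraries, with Trib3 at 0.99 ± 0.23 (adjusted p = 0.235) and Atf4 at 0.34 ± 0.11 (adjusted p = 0.3004); 0 of 16101 genes passed in that edgeR fit, although 2182 had an unadjusted p under 0.05. Both were lost as well with all 22 libraries in one fit, where 542 of 16541 genes were called. Both were also lost without HFD vehicle replicate 1 (Trib3 0.86, adjusted p = 0.0561; Atf4 0.33, adjusted p = 0.0894) or without HFD DTMB replicate 4 (Trib3 0.72, adjusted p = 0.0611; Atf4 0.26, adjusted p = 0.109). Atf4 alone was lost without HFD vehicle replicate 2 (adjusted p = 0.0793) or 4 (0.0799), and without HFD DTMB replicate 2 (0.0636) or 3 (0.0611).

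Atf3 was at 2.39, 0.664, 1.48 and 0.609 CPM with DTMB, with 3 of 4 values under its vehicle range of 1.69 to 4.15 CPM, but did not pass (-1.33 ± 0.50, adjusted p = 0.0929). Without HFD DTMB replicate 1 it was called lower (-1.81, adjusted p = 0.0354). Summed macrophage markers were at 118 to 184 CPM with DTMB and 121 to 295 CPM with vehicle, with 4 of 15 genes lower and 0 higher. Of the immediate-early genes, 4 of 18 were lower and 1 higher. Hepatocyte markers had 4 of 10 higher and 0 lower with DTMB, at sums of 111394 to 118387 CPM against 94539 to 111015 CPM with vehicle, without overlap. Stellate and fibroblast markers had 4 of 11 lower and 0 higher, among them the collagen gene Col1a1 at 4.04 CPM with DTMB and 17.3 CPM with vehicle (-2.10 ± 0.36). None of these marker calls passed without the acinar-positive libraries, in the fit where no gene at all passed. The part of these lists in the levels of Trib3, Atf4 and Atf3 was not tested.

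Asns stayed low with DTMB, at 0.971, 1.37, 1.12 and 1.03 CPM (0.47 ± 0.32 against vehicle). Ddit3 (6.01 to 8.28 CPM, 0.01 ± 0.17), Sesn2 (6.19 to 7.68 CPM, 0.17 ± 0.090) and Ppp1r15a (7.06 to 9.20 CPM, 0.23 ± 0.12) were within or near their vehicle ranges. Chac1 was at 1.74, 2.54, 4.00 and 0.728 CPM (-0.28 ± 0.41), Gdf15 at 6.97, 4.73, 2.91 and 10.3 CPM (-0.44 ± 0.41) and Fgf21 at 7.999, 6.99, 3.08 and 12.4 CPM (-0.02 ± 0.42). These 3 genes spread more among the DTMB livers than among the vehicle livers.

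Against ND, livers on HFD with DTMB had 4 members higher and 1 lower, beside 29.2% of all genes. Ddit3 (0.93 ± 0.19), Trib3 (1.11 ± 0.21), Chac1 (1.84 ± 0.49) and Gdf15 (1.87 ± 0.49) were higher and Asns lower (-3.07 ± 0.32). Without ND replicate 1 the calls of Chac1 (adjusted p = 0.0711) and Gdf15 (adjusted p = 0.0578) were lost. Without all the acinar-positive libraries, with 1 ND library left, Chac1 was lost (1.21 ± 0.65, adjusted p = 0.332), while Gdf15 was at 3.75 ± 0.61 (adjusted p = 0.0163) and Ddit3 (1.31), Trib3 (1.49) and Asns (-3.56) were called. With all 22 libraries in one fit Chac1 was lost again (1.83 ± 0.69, adjusted p = 0.0690). Ppp1r15a was not called (-0.35, adjusted p = 0.0543) but passed as lower under 8 of 21 alternatives, DESeq2 and limma-voom among them.

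On MCD, DTMB left no member past the threshold. In edgeR's test 0 of the 10 were called and 1 had an unadjusted p under 0.05. Over all 16037 genes, 1 was called (0.00624%) and 857 had an unadjusted p under 0.05, with 13 called by DESeq2 and 0 by limma-voom, and neither tool called a member. Fgf21 was at 15.2, 13.8 and 15.1 CPM with DTMB, each above the highest vehicle liver (11.9 CPM), with a log2 fold change of 0.79 ± 0.37 (adjusted p = 0.919, unadjusted 0.0509). Ppp1r15a was at 7.30, 7.81 and 7.21 CPM, each below the lowest vehicle liver (8.38 CPM), at -0.54 ± 0.20 (adjusted p = 0.919, unadjusted 0.0212).

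The other 8 genes overlapped between DTMB and vehicle on MCD, and over all genes tested the libraries did not overlap for 5.86%. Trib3 was at 37.4, 19.4 and 58.2 CPM (0.52 ± 0.41) and Asns at 21.4, 35.2 and 14.3 CPM (-0.31 ± 0.36). Atf3 was at 19.5, 15.6 and 19.4 CPM (-0.20 ± 0.33), Ddit3 at 12.4, 10.0 and 15.4 CPM (0.40 ± 0.27) and Atf4 at 71.9, 82.2 and 92.9 CPM (0.13 ± 0.22). Sesn2 was at 8.48, 4.67 and 9.33 CPM (-0.29 ± 0.25), Gdf15 at 5.32, 2.34 and 4.03 CPM (-0.28 ± 0.50) and Chac1 at 2.49, 0.761 and 1.17 CPM (-0.47 ± 0.71). With standard errors of this size, changes of the magnitude seen for Atf4 and Trib3 on HFD could not be told from 0.

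Against ND, livers on MCD with DTMB had 5 members higher and 0 lower, beside 32.6% of all genes. These were Fgf21 (7.30 ± 0.52), Atf3 (4.19 ± 0.37), Trib3 (1.88 ± 0.41), Ddit3 (1.58 ± 0.27) and Asns (1.38 ± 0.36). Asns was lost without MCD DTMB replicate 2 (0.98, adjusted p = 0.0774). Sesn2 (0.61 ± 0.24, adjusted p = 0.0742) passed without that library, on library size alone and with all 22 libraries in one fit. Tested as a difference between cohorts, the DTMB effect was called for 0 of the 10 members and 0 of 16541 genes (0%) in edgeR's test. An unadjusted p under 0.05 was reached by 1 member and 1415 genes, while DESeq2 called 38 genes and limma-voom 11, none of them a member. The one member was Ppp1r15a, at -0.79 ± 0.24.

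**Figure D3:**
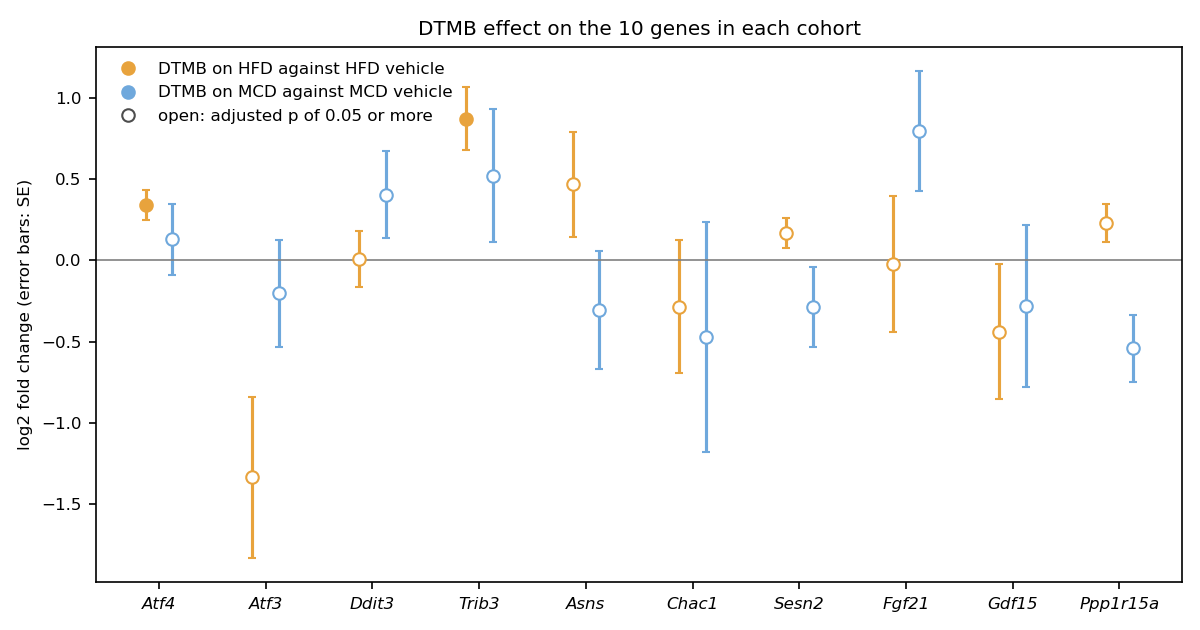
Log2 fold change of DTMB against vehicle on the same diet (y axis) for the 10 genes (x axis); bars are SE, and filled points passed an adjusted p of 0.05. Only Atf4 (0.34) and Trib3 (0.87) on HFD are filled, and no point of the MCD cohort is.

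Lists of genes around the pathway were described by their counts on the TMM scale. Of all genes tested, 27.8% were called for HFD against ND and 41.3% for MCD against ND. The shares were 12.7% for DTMB on HFD against vehicle and 35.3% for MCD minus HFD. A list called at about these shares, or less often, is not set apart from all genes by its counts. Counts without the acinar-positive libraries and under other scaling follow the lists. Amino-acid synthesis enzymes that ATF4 is known to induce had 7 of 15 members higher and 2 lower on MCD, with a median log2 fold change of 0.84. On HFD 1 of 15 was higher and 3 lower, with a median of 0.17. Psat1, of serine synthesis, was at 0.406 to 0.885 CPM on ND and 15.0 to 35.8 CPM on MCD (5.21 ± 0.34, adjusted p = 1.12e-06). Pycr1, of proline synthesis, also rose on MCD (3.28 ± 0.32). On HFD, Psat1 was at 0.22 ± 0.33, and the enzymes of smallest p were Cth, of cysteine synthesis (-0.96 ± 0.13), and the transaminase Got1 (-1.66 ± 0.29), both lower. In the test between cohorts, the MCD diet effect was higher than the HFD diet effect for 8 of the 15 enzymes and lower for 1.

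Amino-acid transporters had 4 of 12 higher and 0 lower on MCD, beside 41.3% of all genes called. On HFD 4 of 12 were higher and 1 lower, beside 27.8% of all genes. On MCD the glutamine carrier Slc1a5 (1.62 ± 0.21) and the cystine carrier Slc7a11 had the smallest p, the latter at 0 to 0.148 CPM on ND and 1.04 to 14.4 CPM on MCD. On HFD these were the lysosomal carrier Slc36a1 (1.06 ± 0.12) and the serine and alanine carrier Slc1a4 (1.42 ± 0.18), and Slc1a4 was lower with DTMB than with vehicle (-1.03 ± 0.16, adjusted p = 0.00981). Cytosolic aminoacyl-tRNA synthetases charge tRNAs and are classical ATF4 targets in cultured cells. On MCD 3 of 20 were higher and 5 lower, beside 41.3% of all genes called. Tars (-1.26 ± 0.15) and Cars (-0.82 ± 0.11) were lower. Without the acinar-positive library, Gars (0.75 ± 0.13) and Sars (0.63 ± 0.14) were higher, and Tars (-1.36 ± 0.14) and Cars (-0.84 ± 0.13) lower. On HFD, 1 of 20 was higher and 4 lower, beside 27.8% of all genes called. Tars (-0.46 ± 0.088) and Iars (-0.37 ± 0.090) were among the lower ones.

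The bZIP partners and co-regulators of ATF4 had 8 of 18 higher and 1 lower on MCD, and 1 higher and 3 lower on HFD. Nfe2l1, a bZIP factor of the proteasome response, was higher on MCD (0.77 ± 0.091), and Cebpg, a C/EBP partner of ATF4, was lower on HFD (-0.36 ± 0.11). Atf5, a close relative of ATF4 under the same translational control, fell from 599 ± 12.0 CPM (SD, n = 3) to 224 ± 52.7 CPM (SD, n = 4) on HFD (-1.42 ± 0.18, adjusted p = 0.000199). On MCD it rose from 281 ± 72.3 to 517 ± 98.7 CPM (SD, n = 4 each; 0.88 ± 0.22, adjusted p = 0.00735). The difference between the diets was 2.33 ± 0.30 (adjusted p = 5.64e-06). Nupr1, a stress co-regulator, was at 0.484 to 1.15 CPM on ND and 9.93 to 41.8 CPM on MCD (4.65 ± 0.54). Nupr1 is also abundant in pancreas, and in the HFD cohort it ran from 0.269 to 4.62 CPM on ND and from 0.663 to 7.30 CPM on HFD (-0.23 ± 1.02).

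Of the kinases, subunits and phosphatase of eIF2, 3 of 19 were higher and 3 lower on MCD, and 2 higher and 1 lower on HFD. Over all genes 41.3% were called on MCD and 27.8% on HFD. Ppp1ca, a catalytic subunit of the phosphatase (0.39 ± 0.068), and Eif2ak3, the kinase PERK that senses unfolded protein (0.63 ± 0.11), were higher on HFD. Eif2s1, the phosphorylated subunit (0.38 ± 0.086), and Ppp1cc, another catalytic subunit (0.38 ± 0.101), were higher on MCD. Among other known ATF4 targets 6 of 23 were higher and 5 lower on MCD, with Arhgef2 (3.65 ± 0.32) and the translation repressor Eif4ebp1 (0.92 ± 0.10) higher. On HFD 5 of 21 were higher and 2 lower, with Vldlr, the VLDL receptor, at 1.08 ± 0.21 and the death receptor Tnfrsf10b at 1.78 ± 0.45. Of the receptors of FGF21 and GDF15, 5 of 7 were tested. In the MCD cohort these were Klb, Fgfr1, Fgfr2, Fgfr3 and Fgfr4, with no receptor of GDF15 among them. Fgfr1, whose product binds FGF21 together with beta-Klotho, was lower on HFD (-0.72 ± 0.18) and not called on MCD (0.67 ± 0.37), Fgfr3 was higher on HFD (0.42 ± 0.13), and Fgfr4 was lower on MCD (-0.97 ± 0.24).

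The ATF6 and XBP1 arm of the unfolded protein response, chaperones and folding enzymes that are not direct ATF4 targets as a group, moved opposite ways. On HFD 11 of 16 were higher and 1 lower (median 0.48), and with DTMB on HFD 11 of 16 were higher and 0 lower against vehicle (median 0.45). On MCD 0 were higher and 12 lower (median -0.78). Between the cohorts, the MCD diet effect was lower than the HFD diet effect for 13 of 16 genes and higher for 1. Manf (0.91 ± 0.17) and Pdia4 (0.58 ± 0.12) had the smallest p on HFD, and Pdia6 (-0.88 ± 0.15) was lower on MCD. Sdf2l1 was 0.68 ± 0.22 higher on HFD (adjusted p = 0.0369), 0.98 ± 0.20 higher with DTMB than with vehicle on HFD (adjusted p = 0.0144), and at -2.22 ± 0.33 on MCD (adjusted p = 0.000301). Xbp1 rose with DTMB on HFD (0.51 ± 0.088) and fell on MCD (-0.95 ± 0.17).

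Targets of PPARalpha, the other regulator of Fgf21, had 0 of 19 higher and 9 lower on HFD, and 12 higher and 3 lower on MCD. Ehhadh, a peroxisomal oxidation enzyme, was at -2.62 ± 0.19 on HFD and 1.02 ± 0.23 on MCD. Plin2, the lipid droplet coat gene, was higher on MCD (1.79 ± 0.18). Cyp4a14 was at 8721 CPM on ND and 2230 CPM on HFD in that cohort, and at 213 CPM on ND and 2696 CPM on MCD in the other. Its ND groups therefore differed in the same direction as those of Fgf21, although the scales are not shared. On HFD, where 9 of these targets were lower, Fgf21 was not called (-0.28 ± 0.45). The part of PPARalpha in the levels of Fgf21 was not tested. The p53 target list, which shares stress inputs with Sesn2 and Gdf15, had 7 of 13 higher and 0 lower on HFD, led by Ccng1 (1.13 ± 0.085) and Aen (0.86 ± 0.075). On MCD 5 were higher and 3 lower, with the death receptor Fas (-0.57 ± 0.102) lower and Phlda3 (2.20 ± 0.48) higher.

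With DTMB on HFD, the genes called in the other lists included Cebpa (0.40 ± 0.069), a master factor of hepatocytes, Dnajc3 (0.35 ± 0.077), an inhibitor of eIF2 kinases, and the transporter gene Slc43a1 (0.69 ± 0.21), all higher. Eif2ak2, the viral RNA kinase PKR (-0.37 ± 0.105), the folate enzyme gene Mthfd1l (-1.71 ± 0.43), and Ccng1 (-0.33 ± 0.077) and Aen (-0.31 ± 0.068) were lower. In the ATF6 and XBP1 arm Dnajb11 (0.49 ± 0.084) and Sec61b (0.58 ± 0.108) had the smallest p. Of the synthetases and the PPARalpha targets 0 were called. With DTMB on MCD 0 genes of any list were called.

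Every list call for DTMB on HFD was lost without the acinar-positive libraries. No gene at all passed in that fit, as given above, so the loss is not particular to these lists. The log2 fold changes there were 0.97 ± 0.14 for Sdf2l1, 0.58 ± 0.12 for Xbp1 and -1.07 ± 0.19 for Slc1a4. The median of the ATF6 and XBP1 arm was then 0.40. With all 22 libraries in one fit 1 of its 16 genes was called higher with DTMB, and 5 on library size alone. For HFD against ND, the fit without the acinar-positive libraries had 1 ND library. There 6 of the 16 genes of the arm were higher and 0 lower, with Manf, Pdia4 and Sdf2l1 among them, and 4 were higher with all 22 libraries in one fit. Of the PPARalpha targets 3 were lower, of the p53 targets 3 were higher, and of the transporters 2 were higher. Of the synthesis enzymes 3 were lower, and of the synthetases and the eIF2 list 0 were called. Atf5 (-1.32 ± 0.22), Cth, Got1, Slc36a1, Slc1a4, Vldlr, Fgfr1, Ehhadh, Cyp4a14, Ccng1 and Aen were called there, while Tars, Iars, Eif2ak3, Ppp1ca, Cebpg, Tnfrsf10b and Fgfr3 were not. The contrast between cohorts also rested on 1 ND library of the HFD cohort in that fit, so no list counts are given for it.

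On library size alone, where the median of all genes on MCD was 0.47, some lists changed their balance. The shares of all genes given above are from the TMM fits and do not apply here. The counts below therefore show only how the lists depend on the scaling. The ATF6 and XBP1 arm had 3 genes higher and 3 lower on MCD (median -0.33), the synthetases 13 higher and 3 lower, the eIF2 list 12 higher and 0 lower, and the other ATF4 targets 15 higher and 1 lower. The receptors then had 1 higher and 0 lower, and the p53 targets 8 higher and 0 lower. The synthesis enzymes (11 higher, 1 lower) and the PPARalpha targets (16 higher, 1 lower) had the same main direction as on the TMM scale. For 13 genes of the ATF6 and XBP1 arm the MCD diet effect was lower than the HFD diet effect on this scale too, and for 1 it was higher. On HFD, library size alone moved the median of all genes from 0.02 to 0.14. There 2 synthetases were higher and 1 lower, and 2 bZIP partners and co-regulators were higher and 1 lower. The lower-leaning counts of these lists on the TMM scale therefore depended on the scaling.

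**Figure D4:**
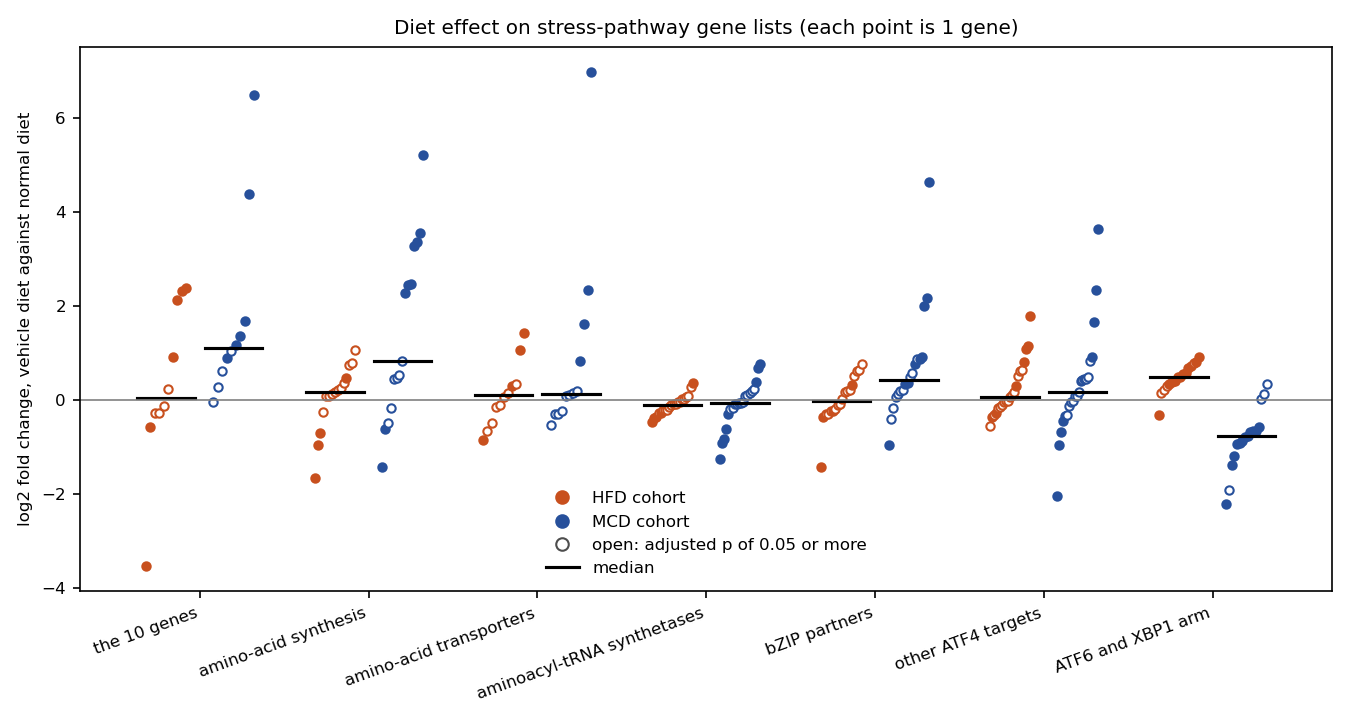
Log2 fold change of vehicle-treated disease diet against normal diet (y axis) for the 10 genes and 6 related lists (x axis), HFD in orange and MCD in blue; each point is a gene, filled where the adjusted p was under 0.05, and black bars are medians. Slc7a11 on HFD and Adm2 on MCD, with 2 and 0 counts in the normal-diet group, are left out as points but kept in the medians; the ATF6 and XBP1 arm has its median at 0.48 on HFD and -0.78 on MCD.

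Within each cohort the members were not one block. Over the 11 libraries of the HFD cohort, the 45 pairs of members had Pearson correlations of log2 CPM from -0.931, for Ddit3 with Asns, to 0.768, for Asns with Ppp1r15a, with a median of 0.0083 and 22 pairs below 0. Over the 11 libraries of the MCD cohort the range was -0.457, for Atf4 with Chac1, to 0.964, for Atf3 with Fgf21, with a median of 0.425 and 9 pairs below 0. Atf4 mRNA correlated with Asns at 0.281 and -0.292 in the cohorts. These values span the groups, so they carry the diet differences given above, and the libraries of a cohort share 1 scale.

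The genes most like Asns in the HFD cohort were Desi2 (r = 0.970), S100pbp (0.970), Atoh8 (0.966) and Vkorc1l1 (0.963), among 11141 genes. In the MCD cohort, among 11487 genes, they were Gldn (0.936), Gnl1 (0.934), Ncor1 (0.933) and Lpp (0.933). Those named for Trib3 were Zfp36l2 (0.962), Klf10 (0.953) and Jade1 (0.940) in the HFD cohort, and Ggct (0.970), Dynlt1f (0.949), Gins1 (0.940) and Nkiras2 (0.931) in the MCD cohort. For Fgf21 they were Atat1 (0.925), Cerkl (0.896), Adcy6 (0.894) and Mrpl35 (0.880) in the HFD cohort, and Fads2 (0.987), Morc4 (0.986), Tmprss7 (0.986) and Gk (0.984) in the MCD cohort. For each of these 3 genes, no gene named for one cohort was named for the other. Lists this short, taken from 11141 and 11487 genes, can differ for that reason alone, so no difference between the cohorts is drawn from them.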

How the data were processed

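Liver RNA was measured in 22 libraries, grouped by their labels. The authors deposited whole-number read counts per gene for each cohort, not normalized. Per the submitters' processing notes, the mm10 build was used with Trimmomatic 0.38, StringTie 2.1.3b, FastQC 0.11.7 and HISAT2 2.1.0. The counting step, its strand setting and its treatment of shared reads are not stated in the labels or headers. Counts were tested with edgeR 4.0.16 (R 4.3.3): filterByExpr, TMM factors and the quasi-likelihood F test, each cohort fitted with its 3 groups, and all 22 libraries together for differences between cohorts. The Benjamini-Hochberg adjustment covered every gene in the fit, and a gene was called at an adjusted p under 0.05 whatever its fold. The SE is the log2 fold change over the square root of F. Labels call the replicates biological; where they do not come from separate mice, p-values measure only the spread between samples.

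The members and the 20 lists around them were chosen with earlier results of these data known. Named genes are all members, genes among the 2 of smallest p per list in a diet comparison or with DTMB on HFD, and the 4 genes of highest Pearson r with Asns, Trib3 and Fgf21 over log2(CPM + 0.1), among genes with a mean of at least 1 CPM; 1 of the latter is not reported here. Values of such genes in a second comparison (Atf5, Psat1, Nupr1, Sdf2l1, Ehhadh, Cyp4a14 and Xbp1) and Adm2, singled out for its counts, were added after their values were seen. Alternatives were DESeq2 1.42.0, limma-voom with quality weights (limma 3.58.1), RLE factors, library size alone, a replicate block, no filter, a filter that asks for over 1 CPM in 3 libraries, a fit of the compared groups alone, a fit of all 22 libraries, leaving out the acinar-positive libraries, and leaving out each library. Deviations from the group means correlated with both signs between same-numbered libraries (r = -0.534 to 0.490 in the HFD cohort, -0.406 to 0.121 in the MCD cohort). Replicate 2 of the HFD cohort had positive values alone (0.490, 0.345 and 0.254). Libraries of different number were not compared, so these values cannot show whether pairing was absent. Replicate numbers are not stated to pair mice, and the libraries were treated as unpaired. Promoters and gene positions are from RefSeq for GRCm38.p6. Figures were drawn with matplotlib 3.10.9.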

Additional observations from a re-analysis of the deposited data

Results flagged for a closer look

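In 3 of 40 gene and group combinations with 4 libraries, the highest library stood apart from the rest by Dixon's criterion, which chance alone meets in about 1 of 20. Atf4 was at 67.9 CPM in HFD DTMB replicate 4, against 56.7 to 57.5 CPM in the other DTMB livers. Ddit3 was at 9.58 CPM in HFD vehicle replicate 2. Asns was at 41.2 CPM in MCD vehicle replicate 1.

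The diet effect differed between the cohorts by the interaction test for 5 members, as MCD minus HFD log2 fold change: Atf3 by 2.04, Asns by 5.26, Sesn2 by 1.07, Fgf21 by 6.81 and Ppp1r15a by 0.88. For Asns the direction itself differed. Diet and cohort cannot be told apart in these differences.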

How the results depend on the processing

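Over 80 fold changes of the members and 1860 alternatives, 1750 kept direction and side of the threshold, 28 lost the threshold, 30 passed it and 52 changed sign. Atf3, Ddit3, Trib3, Asns, Sesn2 and Fgf21 were called higher on MCD under every alternative run. Without the acinar-positive libraries, 0 members were called for DTMB on HFD against vehicle. Fewer members were also called for HFD against ND and for MCD minus HFD. Fewer libraries were fitted there, with 1 ND library of the HFD cohort. For DTMB on HFD against vehicle, 1 member was called with library size alone, 1 with no filter, 0 with all libraries in one fit and 0 to 3 when each library was left out. For HFD with DTMB against ND the latter range was 3 to 6. With the replicate block 2 members were called for DTMB on HFD, Trib3 higher and Atf3 lower (-1.47, adjusted p = 0.0300) with Atf4 lost (adjusted p = 0.0601), and no other count left 1.5 times its value. Every sign change was in a fold change that was not called, and the cause was not tested. HFD against ND: Fgf21 0.61 without acinar-positive libraries (-0.53 to 0.40 leaving out each library). DTMB on HFD: Ddit3 -0.052 with voom, -0.14 with library size, -0.0064 with no filter, -0.0056 with the stricter filter, -0.0052 with the replicate block and -0.19 without acinar-positive libraries (-0.054 to 0.16 leaving out each library); Fgf21 0.0080 with the block and 0.031 without acinar-positive libraries (-0.38 to 0.24). HFD with DTMB against ND: Fgf21 0.64 without acinar-positive libraries (-0.66 to 0.38), Atf4 -0.019 to 0.18 and Sesn2 -0.037 to 0.068. MCD against ND: Atf4 0.40 with library size (-0.23 to 0.13) and Chac1 -0.35 to 0.99. DTMB on MCD: Atf4 -0.045 to 0.31, Atf3 -0.44 to 0.17, Chac1 -1.07 to 0.50 and Gdf15 -0.57 to 0.15. MCD with DTMB against ND: Ppp1r15a 0.10 with library size, Atf4 -0.011 to 0.17 and Chac1 -0.46 to 0.51. MCD minus HFD: Ddit3 -0.37 without acinar-positive libraries (-0.0038 to 0.48). Difference in DTMB effect: Chac1 0.020 with voom, 0.29 with the block and 0.039 without acinar-positive libraries (-0.81 to 0.77); Gdf15 -0.027 with the block and -0.045 without acinar-positive libraries (-0.14 to 0.57). Low counts limit Fgf21 on ND of the MCD cohort (18 counts in 4 libraries) and Asns on HFD (207 counts in 4 libraries).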
